A study of Mus musculus with 24 samples.

Results

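Glutathione S-transferases (GSTs) are the enzymes that join glutathione to reactive molecules. The 10 GST genes described here, Gsta2, Gsta3, Gsta4, Gstm1, Gstm2, Gstm3, Gstm4, Gstp1, Gstt2 and Gstk1, were taken by gene name from the 55421 rows of the deposited gene count table. All 10 were among the 13583 genes with enough counts to be tested. They were measured by polyA RNA-seq in hepatocytes, the parenchymal cells of the liver, from 24 male mice without any genetic change given in the labels, 6 in each of 4 groups. By the labels, young ND and young HFD mice were C57BL/6N animals of 6 months, and old ND and old HFD mice were C57BL/6J animals of 24 months, so that effects of age cannot be told apart from those of substrain. The published text names no substrain and gives other ages. All mice were kept on their diet for 9 weeks with free access. The high-fat diet (HFD) was TestDiet 58y1 with 60% of its energy from fat. The normal diet (ND) is an 18% protein Teklad chow in the labels, while the published methods name a TestDiet formula low in fat. Hepatocytes came from livers perfused with collagenase in 2 steps after CO2 euthanasia, and were purified before freezing. Each library comes from 1 mouse.

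In the liver, cytosolic GSTs of the alpha, mu, pi and theta classes attach the sulfur of glutathione to drugs, carcinogens and the aldehydes formed when membrane lipids are oxidised. The conjugates leave the hepatocyte through ABC transporters and are trimmed and acetylated to mercapturic acids for excretion in urine or bile. The kappa class is of separate descent and lies in mitochondria and peroxisomes. Many alpha and mu class genes are induced through antioxidant response elements by the transcription factor NRF2 (gene Nfe2l2), which KEAP1 holds back in unstressed cells, and the nuclear receptors CAR (Nr1i3), PXR (Nr1i2) and PPARα (Ppara) also act on several of them. In mice, pi class transcripts are known for their high level in male liver.

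Counts on genes totalled 9200332 to 22185069 per mouse. The libraries carry 2 batch labels, which split old ND into 2 and 4 mice and every other group into 3 and 3. Levels are given as CPM, counts scaled to a common library total with edgeR's TMM factors. Groups were compared with edgeR's two-sided quasi-likelihood test, fitted to all mice at once with group and batch in the model and adjusted by Benjamini-Hochberg over the 13583 genes. A gene was called when its adjusted p fell below 0.05. Hepatocyte markers were abundant in every mouse: the summed level of 10 such genes was 111056 to 165174 CPM in young ND, 87067 to 148475 CPM in young HFD, 78324 to 185574 CPM in old ND and 98766 to 155734 CPM in old HFD. Markers of other liver cells were also present. The summed level of 18 immune cell markers was 3.36 to 108 CPM in young ND, 23.6 to 300.0 CPM in young HFD, 90.5 to 1809.9 CPM in old ND and 126 to 998 CPM in old HFD, and the T cell gene Cd8a and the B cell gene Cd79a were at 0 in 11 of the 24 mice each. In libraries of this kind, fewer cells of a type and less RNA per cell cannot be told apart. Old ND replicate 4 stood apart, with the lowest sum of hepatocyte markers, 78324 CPM, and the highest of immune cell markers, 1809.9 CPM. Old HFD replicate 2 had the highest level of its group in 6 of the 10 GST genes, stood apart from the other 5 in Gstk1, and had the lowest sums of its group for 10 endothelial and 10 stellate cell markers, 34.0 and 36.2 CPM. The counts of called GST, glutathione and NRF2 genes that moved are also given without old ND replicate 4, and without both mice. Nnt, which carries a deletion in C57BL/6J and not in C57BL/6N, was at 1.34 to 2.64 CPM in young and 0.538 to 2.57 CPM in old mice, so its level overlapped between the substrains that the labels name.

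Most of the genes lie in clusters with close relatives, given here on GRCm38, the mm10 build used by the authors, from the GENCODE annotation. The mu class forms a block on chromosome 3, minus strand, with Gstm3 from 107963696 to 107969283, Gstm2 from 107981702 to 107986453, Gstm1 from 108012255 to 108017973 and Gstm4 from 108040408 to 108044894. Of the alpha class, Gsta4 on the plus strand from 78182774 to 78209349 and Gsta2 on the minus strand from 78331018 to 78355788 share chromosome 9, while Gsta3 lies on chromosome 1 from 21240589 to 21265661, plus strand. Gstp1 is on chromosome 19 from 4035407 to 4037985, minus strand, next to its relatives Gstp2 and Gstp3. Gstk1, the only gene of the 10 on chromosome 6, lies from 42245935 to 42250447, plus strand. Gstt2 is on chromosome 10 from 75831114 to 75837424, minus strand. Such neighbours can share reads. Of all distinct 50-base stretches in the annotated transcripts of a gene, 49.8% in Gsta2 also occurred in transcripts of another gene, mostly Gsta1, 33.7% in Gstp1, all in Gstp2, 28.8% in Gstm3 and 18.9% in Gstm1. The share was 5.65% in Gstm2 and under 1% in the other 5 genes, of which Gsta4, Gstm4 and Gstk1 shared none. Counts of the first 4 are therefore uncertain to the extent that reads were dropped or assigned to a copy. Gsta3 also overlaps an antisense gene, Gm28836, and whether counting used strand is not stated.

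The promoters of Gstp1, Gstm1, Gstm3 and Gstk1 are shown because these are the 4 genes called between HFD and ND at 1 age or both, the first 3 lower and Gstk1 higher on HFD. Each run holds 250 bases before and 50 after a RefSeq transcription start on GRCm38.p6, written 5′ to 3′ on the gene's strand, in lower case. A table of 32851 such promoters held 8 of the 10 genes and lacked Gsta4 and Gstt2. For Gstm1 and Gstm4 the first of the starts listed was used. Capitals mark any match, on either strand, to 3 motifs: the core of the antioxidant response element (TGACNNNGC), the AP-1 site (TGANTCA, which can overlap the former) and the direct repeat bound by PPARα with RXR (AGGTCA, any 1 base, AGGTCA).
Gstp1 (chr19:4037863-4038162, minus strand): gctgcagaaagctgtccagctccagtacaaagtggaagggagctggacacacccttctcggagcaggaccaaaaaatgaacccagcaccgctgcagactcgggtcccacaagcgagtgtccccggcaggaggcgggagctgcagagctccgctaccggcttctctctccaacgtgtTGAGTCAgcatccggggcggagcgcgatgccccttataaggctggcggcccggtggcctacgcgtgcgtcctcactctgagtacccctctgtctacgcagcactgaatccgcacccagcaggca
Gstm1 (chr3:108017924-108018223, minus strand): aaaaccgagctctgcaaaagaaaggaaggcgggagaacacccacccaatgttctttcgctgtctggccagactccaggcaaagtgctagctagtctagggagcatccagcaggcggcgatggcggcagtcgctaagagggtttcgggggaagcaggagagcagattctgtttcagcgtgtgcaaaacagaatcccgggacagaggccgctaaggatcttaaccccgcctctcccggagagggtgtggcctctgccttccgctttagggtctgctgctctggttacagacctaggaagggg
Gstm3 (chr3:107969125-107969424, minus strand): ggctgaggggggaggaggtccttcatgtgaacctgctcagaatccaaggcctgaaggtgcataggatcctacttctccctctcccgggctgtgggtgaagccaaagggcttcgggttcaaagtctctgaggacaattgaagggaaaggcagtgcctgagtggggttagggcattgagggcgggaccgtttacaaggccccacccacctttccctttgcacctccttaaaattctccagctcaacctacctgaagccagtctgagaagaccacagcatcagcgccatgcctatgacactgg
Gstk1 (chr6:42245685-42245984, plus strand): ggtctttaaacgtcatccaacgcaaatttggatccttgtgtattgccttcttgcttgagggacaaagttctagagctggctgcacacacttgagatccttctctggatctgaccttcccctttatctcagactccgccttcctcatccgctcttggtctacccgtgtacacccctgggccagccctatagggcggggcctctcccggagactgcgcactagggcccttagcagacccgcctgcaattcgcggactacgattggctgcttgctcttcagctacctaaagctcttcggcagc
Of these 4 promoters, that of Gstp1 alone held a match, an AP-1 site that begins 74 bases before the start. Of all 32851 promoters, 7.81% held an AP-1 match, 12.4% a match to the antioxidant response element core and 0.0396% a match to the direct repeat. Of the other 4 promoters, Gsta3 held 1 match, TGACATTGC, to the antioxidant response element core, beginning 121 bases before its start, and Gsta2, Gstm2 and Gstm4 held none. These are matches of letters in short windows and say nothing of binding in these cells.

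Together the 10 genes made up a smaller part of the hepatocyte transcriptome on HFD in young mice. Their summed level was 4087 to 5185 CPM in young ND (median 4868) and 2548 to 3445 CPM in young HFD (median 2873), with no overlap between these groups. It was 1439 to 4630.2 CPM in old ND (median 4403) and 1604 to 5497 CPM in old HFD (median 2991), and these overlapped: the lowest ND value was that of old ND replicate 4 and the highest HFD value, 5497 CPM, that of old HFD replicate 2. The next highest old HFD mouse was at 3780.2 CPM and the other 5 old ND mice were between 4232 and 4630.2 CPM. The make-up of the sum differed too. Of the counts of all 10 genes, which are not corrected for length, the pi class gene Gstp1 supplied a mean of 20.5% in young and 14.1% in old mice on ND, and 8.91% and 9.31% on HFD. The 4 mu class genes supplied 32.3% and 41.4% on ND, and 29.1% and 25.7% on HFD. The share of the 3 alpha class genes was 44.2% and 41.1% on ND, and 54.7% and 56.9% on HFD. Gstk1 supplied 5.38% and 5.99% on HFD, where its share on ND was 2.15% in young mice.

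**Figure D1:**
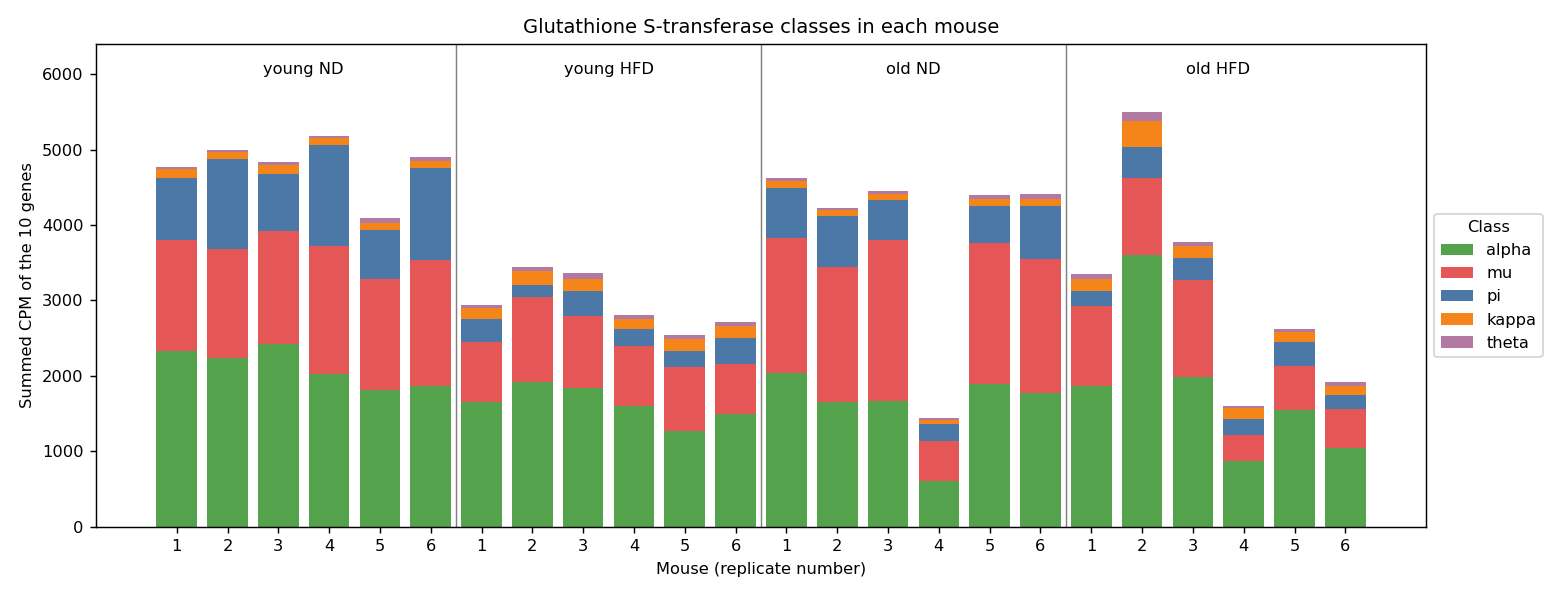
Summed CPM of the 10 GST genes in each of the 24 mice (x axis, replicate number within group), stacked by class. Young HFD bars lie between 2548 and 3445 CPM, below every young ND bar, and old ND replicate 4 has the lowest bar of all.

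Levels between genes were compared per length only. In the deposited FPKM values, Gstp1 was the highest of the 10 in young ND with a mean of 525 FPKM, followed by Gstm1 with 254, Gsta3 with 78.7 and Gstk1 with 27.0. Gstm4, Gstm2, Gstm3 and Gstt2 lay between 21.4 and 7.28 FPKM, and Gsta4 and Gsta2 were lowest with 3.07 and 1.33. In young HFD, Gstm1 with 145 FPKM and Gstp1 with 132 had changed places. When CPM were instead divided by the length of all annotated exons of a gene, Gstm1 led in young ND with 926 CPM per kilobase, ahead of Gstp1 with 642 and Gsta3 with 459, Gsta4 came to 66.9 and Gstt2 was last with 10.1. The order of the genes thus differed between the measures, which differ in counting and scaling as well as in length. The part of each was not tested. The 3 highest genes were the same in both.

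The question of the diet comparison was how HFD alters the hepatocyte transcriptome at each age. In young mice, 1 GST gene rose and 2 fell on HFD among 10 tested: Gstk1 rose, and Gstp1 and Gstm1 fell. Over all genes, 1.91% were called higher and 1.59% lower in this comparison. In old mice, 1 of 10 rose (Gstk1) and 3 fell (Gstp1, Gstm1 and Gstm3), against 1.37% called higher and 1.64% lower over all genes. The median log2 fold change of the 10 genes was -0.64 in young and -0.51 in old mice, where the median of all genes was 0.01 and -0.007. Between old ND and young ND, 1 of 10 fell (Gstp1) and none rose, against 7.26% called higher and 1.24% lower, with a median of 0.05 for the 10 genes and 0.007 for all genes. Between old HFD and young HFD, none of 10 was called, against 1.82% called higher and 0.42% lower. When old ND replicate 4 was left out, 5 of 10 genes were called in young mice (Gsta4 and Gstm4 were added, both lower) and 5 in old mice (Gstm4 was added, lower), and none in old ND against young ND. Over all genes, 3.5%, 3.01% and 8.5% were called in either direction with all mice, and 4.95%, 2.94% and 4.26% without it. With old HFD replicate 2 left out as well, the counts of GST genes were 5, 6 (Gsta4 was added, lower) and 0, and the shares of all genes were 10.6%, 2.61% and 6.08%, so that in young mice more genes of any kind were called too. Other settings lowered the counts. With each mouse left out in turn they ran from 1 to 5, 3 to 5 and 0 to 1. In old mice no GST gene was called on HFD in batch 1 alone or with only the 2 groups compared, where 0.111% and 0.119% of all genes were. In the old HFD group the GST genes differed by batch: its 3 batch 1 mice were all above its 3 batch 2 mice for 8 of the 10 genes, all but Gstp1 and Gstt2, while this held for 3 of 10 in young ND, 3 in young HFD and none in old ND. Of all genes tested, the same order held for 10.2% in old HFD, 14.1% in young ND, 13.5% in young HFD and 13.2% in old ND. Within-batch values are given beside the calls on the 10 genes.

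**Figure D2:**
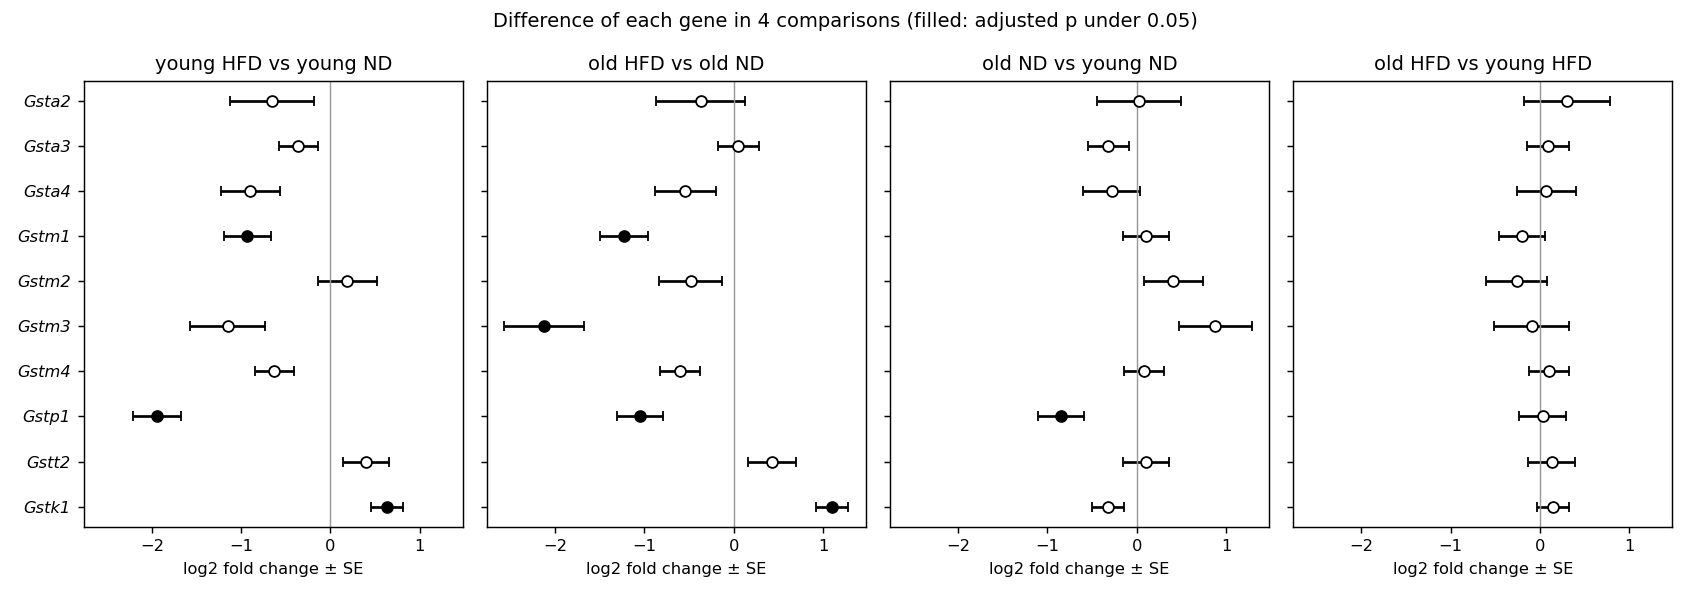
Log2 fold change ± SE of the 10 GST genes in 4 comparisons (panels, x axis), 6 mice per group, with filled points where the gene was called. Gstk1 is to the right and Gstp1 and Gstm1 to the left of 0 on HFD at both ages, and all points of old HFD against young HFD are open and lie between -0.26 and 0.30.

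The pi class gene Gstp1 (ENSMUSG00000060803) conjugates a broad range of electrophiles and also acts in stress kinase signalling. It ranged from 644 to 1329.7 CPM in young ND (median 1007) and from 158 to 346 CPM in young HFD (median 262). Every young HFD mouse was below every young ND mouse. The log2 fold change was -1.94 (SE 0.27, adjusted p = 0.000224), 3.82-fold lower on HFD, with batches 1 and 2 alone giving -1.82 and -2.01. In old mice it ranged from 226 to 699.9 CPM in old ND (median 593) and from 179.7 to 418 CPM in old HFD (median 249). Old HFD mice were low as in the young HFD group, and the groups overlapped because old ND replicate 4 was at 226 CPM, under the range of 483 to 699.9 of the other 5. Gstp1 fell by 1.05 on the log2 scale on HFD (SE 0.26, adjusted p = 0.0307), with batches 1 and 2 alone giving -1.22 and -1.01, and by 1.33 (adjusted p = 0.00246) without old ND replicate 4 and old HFD replicate 2. The call in old mice was lost when any of 5 single mice was left out, with an adjusted p between 0.0547 and 0.0938 (edgeR).

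Gstp1 was also the 1 gene of the 10 that differed between old ND and young ND. Its log2 fold change was -0.85 (SE 0.26, adjusted p = 0.0402), with batches 1 and 2 alone giving -0.45 and -1.14, and 3 of 6 old ND mice were below the lowest young ND mouse. With old ND replicate 4 left out it was -0.69 (adjusted p = 0.105), so the call was lost. Beside it, 14 of 15 tested immune cell markers, 5 of 10 endothelial and 9 of 10 stellate cell markers were called higher in old ND. With that mouse left out the counts were 13 of 15, 0 of 10 and 4 of 10. Their part in the result was not tested. The log2 fold change on HFD in old mice minus that in young mice was 0.89 (SE 0.36), which did not pass in the test of the age by diet interaction (adjusted p = 0.531).

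**Figure D3:**
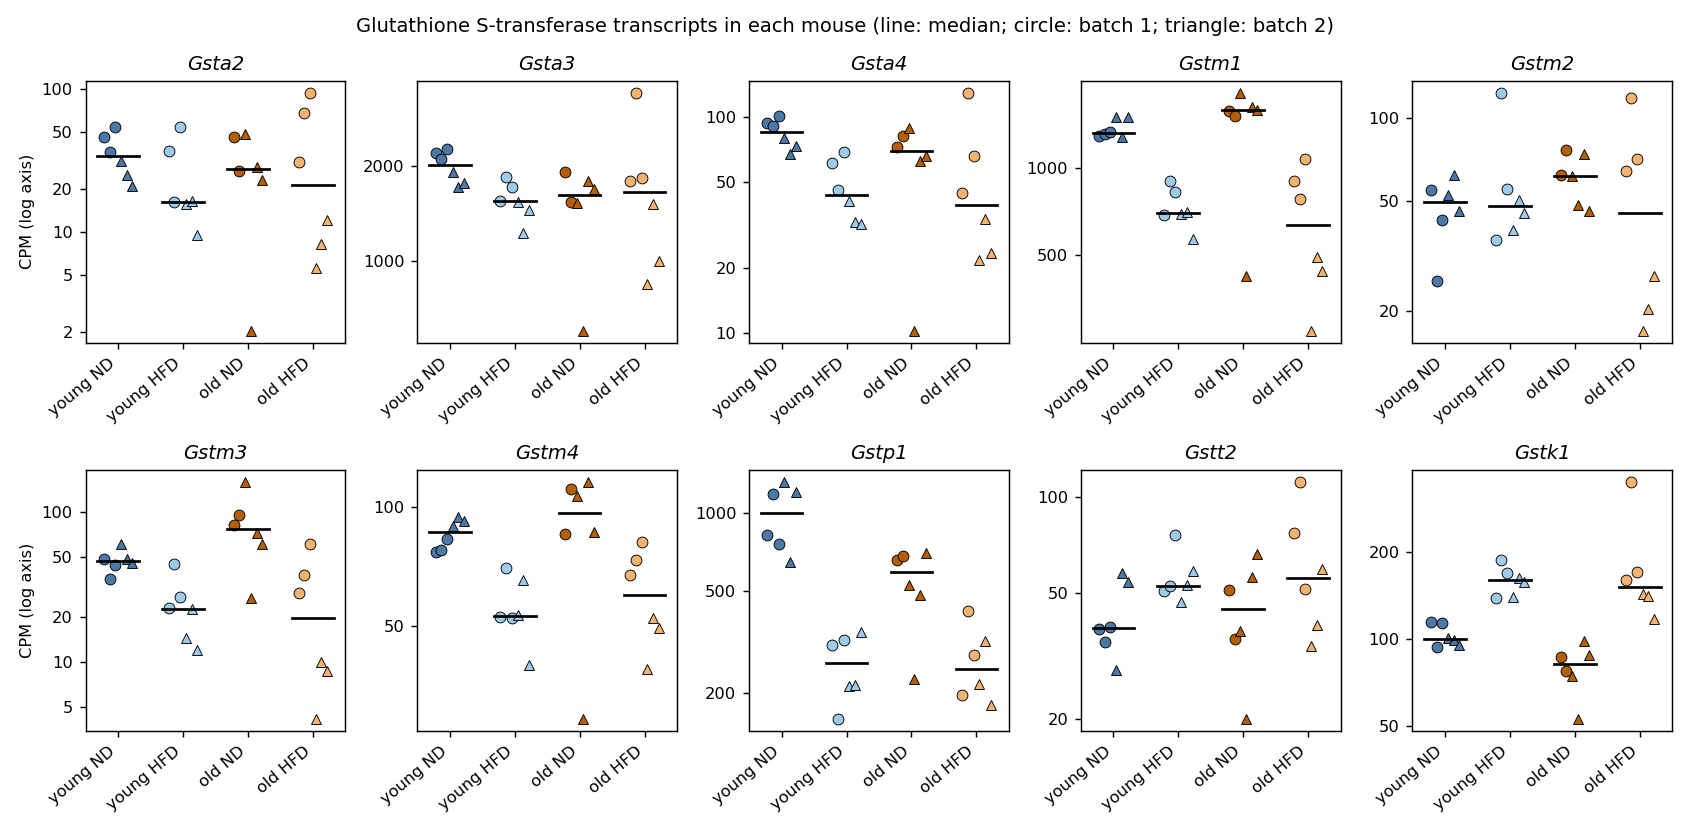
CPM of each GST gene on a log axis by group (x axis, young groups in blue and old groups in orange), 6 mice per group, with a line at the median, circles for batch 1 and triangles for batch 2. Gstp1 and Gstm1 of young HFD lie wholly below and Gstk1 wholly above young ND, and old ND replicate 4 is the lowest old ND triangle in 9 of the 10 panels.

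The mu class enzymes act on many aromatic electrophiles and epoxides. Gstm1 (ENSMUSG00000058135), the highest of the 4 per length here, ranged from 1271 to 1496 CPM in young ND (median 1317) and from 569 to 896 CPM in young HFD (median 700.4), without overlap. Its log2 fold change was -0.93 (SE 0.26, adjusted p = 0.0463), with batches 1 and 2 alone giving -0.71 and -1.09. In old mice it ranged from 423 to 1808 CPM in old ND (median 1575) and from 275 to 1073 CPM in old HFD (median 637). The 5 old ND mice other than replicate 4, which had 423 CPM, were above all old HFD mice. Gstm1 fell by 1.23 on the log2 scale on HFD in old mice (SE 0.27, adjusted p = 0.016), with batches 1 and 2 alone giving -0.79 and -1.74. In young mice this call was close to the threshold: leaving out any of 18 single mice took the adjusted p to between 0.0501 and 0.126. With old ND replicate 4 and old HFD replicate 2 left out the change was -0.89 (adjusted p = 0.00836) in young and -1.40 (adjusted p = 0.00115) in old mice.

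Gstm3 (ENSMUSG00000004038) had the largest difference of the 10 genes between old HFD and old ND. It ranged from 26.4 to 159 CPM in old ND (median 77.3) and from 4.11 to 60.9 CPM in old HFD (median 19.4). The 3 old HFD mice of batch 2 were at 4.11, 9.98 and 8.64 CPM, below all old ND mice, and the 3 of batch 1 were at 28.9, 37.9 and 60.9. Gstm3 fell by 2.12 on the log2 scale (SE 0.45, adjusted p = 0.0153), that is 4.34-fold, with batches 1 and 2 alone giving -1.11 and -3.40. In young mice it ranged from 35.5 to 61.5 CPM in young ND (median 46.9) and from 11.9 to 45 CPM in young HFD (median 22.6), and 5 of 6 HFD mice were below the lowest ND mouse. That log2 fold change, -1.15 (SE 0.42, adjusted p = 0.113), did not pass. Old ND mice had a higher median than young ND, with a log2 fold change of 0.88 (SE 0.41, adjusted p = 0.197) that did not pass either.

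Gstm4 ranged from 76.8 to 94.3 CPM in young ND (median 86.2) and from 39.9 to 70.1 CPM in young HFD (median 53.1). Every young HFD mouse was below every young ND mouse, and the log2 fold change of -0.63 (SE 0.22, adjusted p = 0.0987) missed the threshold. In old mice it was -0.60 (SE 0.22, adjusted p = 0.118), with 29.1 to 116 CPM in old ND (median 96.6) against 39.1 to 81.5 CPM in old HFD (median 59.8). Both passed with old ND replicate 4 left out, at -0.60 (adjusted p = 0.0266) in young and -0.75 (adjusted p = 0.0139) in old mice. Neither passed with any other single mouse left out. Within batches 1 and 2 the values were -0.44 and -0.77 at the young age and -0.45 and -0.84 at the old. Gstm2 overlapped between all groups. It had 25.7 to 61.9 CPM in young ND (median 49.4) and 36.0 to 123 CPM in young HFD (median 47.8), where young HFD replicate 2 was alone at the top, and a log2 fold change of 0.19 (SE 0.33, adjusted p = 0.814). In old mice the Gstm2 value was -0.48 (SE 0.35, adjusted p = 0.442), and its sign differed between batches, with batches 1 and 2 alone giving 0.23 and -1.41.

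None of the alpha class genes was called in any comparison. Gsta3 (ENSMUSG00000025934), whose product detoxifies the epoxide of aflatoxin in mice, ranged from 1718 to 2268 CPM in young ND (median 2012), from 1223 to 1851 CPM in young HFD (median 1548), from 601 to 1915 CPM in old ND (median 1615) and from 848 to 3408 CPM in old HFD (median 1651). In young mice 4 of 6 on HFD were below the lowest on ND, and the log2 fold change was -0.36 (SE 0.22, adjusted p = 0.384). In old mice it was 0.05 (SE 0.23, adjusted p = 0.928), which turned to -0.29 (adjusted p = 0.257) without old ND replicate 4 and old HFD replicate 2, the latter at 3408 CPM. The young value was -0.36 and -0.33 within batches 1 and 2, and the old value 0.39 and -0.31.

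Gsta4 (ENSMUSG00000032348), the alpha class enzyme with high activity toward the lipid peroxidation product 4-hydroxynonenal, ranged from 67.6 to 101 CPM in young ND (median 85.6) and from 31.8 to 68.6 CPM in young HFD (median 43.4). Of the young HFD mice, 5 of 6 were below every young ND mouse, and the log2 fold change of -0.90 (SE 0.33, adjusted p = 0.11) did not pass. In old mice there were 10.2 to 89.2 CPM in old ND (median 69.5) and 21.8 to 129.6 CPM in old HFD (median 38.9), with a log2 fold change of -0.54 (SE 0.34, adjusted p = 0.352). The lowest value of the old ND group was again replicate 4 and the highest of old HFD replicate 2. Without both mice Gsta4 passed at each age, with -0.85 (adjusted p = 0.00266) in young and -1.05 (adjusted p = 0.00246) in old mice. Without only the old ND mouse it passed in young mice, at -0.86 (adjusted p = 0.0391), and not in old mice, at -0.71 (adjusted p = 0.111). Without only old HFD replicate 2 it passed at neither age (adjusted p = 0.0544 in young and 0.128 in old mice, edgeR). These 2 mice were chosen after the data were seen. Leaving out the lowest ND and the highest HFD mouse lowers the old value by construction, so calls gained that way are no support. Batches 1 and 2 alone gave -0.71 and -1.04 for the young comparison and -0.00 and -1.11 for the old one. Gsta2, an alpha class gene strongly inducible through NRF2, was low and spread widely, with 20.9 to 54.2 CPM in young ND (median 33.9), 9.55 to 54.5 CPM in young HFD (median 16.4), 2.04 to 48.9 CPM in old ND (median 27.7) and 5.61 to 94.4 CPM in old HFD (median 21.5). All 4 groups overlapped. In old HFD its 3 batch 1 mice had 30.9, 68.7 and 94.4 CPM and its 3 batch 2 mice 5.61, 8.26 and 12.2, with a log2 fold change against old ND of -0.37 (SE 0.50, adjusted p = 0.723), batches 1 and 2 alone giving 0.77 and -1.56.

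Gstk1 (ENSMUSG00000029864), the kappa class enzyme of mitochondria and peroxisomes, was higher on HFD at both ages, where the other called genes were lower. It ranged from 93.9 to 114 CPM in young ND (median 99.8) and from 138 to 187 CPM in young HFD (median 159.9), and from 52.6 to 97.8 CPM in old ND (median 81.8) and from 117 to 349 CPM in old HFD (median 151). At both ages every HFD mouse was above every ND mouse. Gstk1 rose by 0.63 on the log2 scale in young mice (SE 0.18, adjusted p = 0.0493), with batches 1 and 2 alone giving 0.62 and 0.67, and by 1.10 in old mice (SE 0.18, adjusted p = 0.00306), with batches 1 and 2 alone giving 1.41 and 0.79. The young value lay near the threshold, and leaving out any of 16 single mice took the adjusted p to between 0.0508 and 0.121. With old ND replicate 4 left out, and old HFD replicate 2, which was at 349 CPM, the values were 0.66 (adjusted p = 0.000263) in young and 0.80 (adjusted p = 0.000364) in old mice. The difference between the ages, 0.47, did not pass (SE 0.25, adjusted p = 0.566).

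Gstt2, a theta class enzyme with a catalytic serine, had 28.4 to 57.8 CPM in young ND (median 38.6), 46.7 to 76.3 CPM in young HFD (median 52.7), 19.9 to 66.3 CPM in old ND (median 44.4) and 34.0 to 112 CPM in old HFD (median 55.5). All groups overlapped. Its log2 fold change on HFD was 0.40 (SE 0.26, adjusted p = 0.402) in young and 0.43 (SE 0.27, adjusted p = 0.354) in old mice, and neither passed. Gstt2 and Gstk1 were the 2 genes of the 10 with a positive fitted value on HFD at both ages.

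The comparison of old HFD with young HFD asks whether the diet led to different levels at the 2 ages. Log2 fold changes of the 10 genes lay between -0.26 (Gstm2) and 0.30 (Gsta2), with a smallest adjusted p of 0.661 (edgeR), and none was under an unadjusted p of 0.05. Batch 1 alone gave positive values for all 10 genes, from 0.15 (Gstp1) to 0.83 (Gsta2), and batch 2 alone negative values for all 10, from -1.12 (Gstm3) to -0.13 (Gstp1), so that the sign of this comparison differed between the batches. In the age by diet interaction 0% of all genes were called higher and 0% lower by edgeR, with 1247 genes under an unadjusted p of 0.05, 7 called by DESeq2 and 0 by limma on log2(FPKM + 1). Of the 10 GST genes none was called by any of these 3 fits, and 1, Gstp1, had an unadjusted p under 0.05 in edgeR. Without a filter on low counts edgeR called 2 of the 10, Gstp1 and Gstm3, and 1.82% of all genes. That no gene passed with the filter does not show that the diet acted alike at both ages.

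Old HFD and young ND differ by both age and diet, and by the labels also in substrain. Here 1 of 10 GST genes was called higher and 3 lower, against 17.3% called higher and 12.9% called lower over all genes. Gstp1 had a log2 fold change of -1.90 (SE 0.27, adjusted p = 6.36e-05), Gstm1 of -1.13 (SE 0.26, adjusted p = 0.0035), Gstm3 of -1.23 (SE 0.43, adjusted p = 0.0353) and Gstk1 of 0.78 (SE 0.18, adjusted p = 0.00325). Gsta4 with -0.83 (SE 0.33, adjusted p = 0.0582), Gstm4 with -0.53 (SE 0.22, adjusted p = 0.0705) and Gstt2 with 0.53 (SE 0.26, adjusted p = 0.125) did not pass. For Gstm3 batches 1 and 2 alone gave -0.03 and -2.78, for Gstm1 -0.54 and -1.81, for Gstp1 -1.67 and -2.15, and for Gstk1 1.04 and 0.45. The Gstm3 call was lost when any of 6 single mice was left out, with an adjusted p between 0.051 and 0.105 (edgeR). Here 15 of 15 tested immune cell markers, 9 of 10 endothelial and 8 of 10 stellate cell markers were called higher, and their part in these results was not tested. It shares its control mice with the diet comparison in young mice and its HFD mice with that in old mice. Without old ND replicate 4, 6 of 10 were called, with Gsta4 (adjusted p = 0.0181) and Gstm4 (adjusted p = 0.018, edgeR) added, both lower, where 32.2% of all genes were called. With old ND replicate 4 and old HFD replicate 2 left out, 7 of 10 were called, with Gsta3, Gsta4 and Gstm4 added, all lower, where 30.2% of all genes were called in either direction, as with all mice.

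Markers of other cells and of liver zones were counted beside the diet comparisons. On HFD in young mice 2 of 15 tested immune cell markers, 1 of 10 endothelial, 2 of 10 stellate and 0 of 10 hepatocyte markers were called higher, and none was called lower. Leaving out old ND replicate 4 gave counts of 5 of 15, 6 of 10, 2 of 10 and 0 of 10, and with old HFD replicate 2 left out as well 7 of 14, 10 of 10, 5 of 10 and 0 of 10, in the same fits in which Gsta4 and Gstm4 were called in the young comparison. In the fit of all mice the 15 immune cell markers had a median log2 fold change of 2.21. On HFD in old mice none of the 15 immune, 10 endothelial or 10 stellate cell markers was called, the immune median was -0.22, and 2 of 10 hepatocyte markers were called higher. With both mice left out, no hepatocyte marker was called higher there and 1 of 10 lower. Of the cholangiocyte markers 4 of 10 were tested and none was called in any comparison. Of markers of the pericentral zone, where several mu class GSTs and Cyp2e1 are known to be highest, 2 of 10 were called higher in young and 1 of 10 in old mice, with none lower. No periportal marker was called in either. With both mice left out the pericentral counts were 4 of 10 and 1 of 10, and in young mice 1 periportal marker was called higher and 1 lower. The part of these markers in the GST results was not tested. In old HFD the 2 mice with the lowest sums of the 10 GSTs, replicates 4 and 6 with 1604 and 1921 CPM, had the highest immune cell marker sums of their group, 768 and 998 CPM. In old ND, replicate 3 had an immune marker sum of 1203 CPM beside a GST sum of 4445 CPM, the second highest of its group.

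Beyond the group differences, most of the 10 genes varied together from mouse to mouse. After the mean of each group in each batch was removed from log2 CPM, 44 of the 45 gene pairs had a positive Pearson correlation over the 24 mice, with a median r of 0.55 and a range from -0.26 to 0.92. The highest values were 0.92 for Gstm1 with Gstm4, 0.88 for Gsta3 with Gsta4 and 0.87 for Gsta2 with Gsta4, and the single negative pair was Gstm2 with Gstp1. Gstm2 with Gsta2 had 0.08 and Gstm2 with Gsta4 0.17. The points share libraries and depth, and old ND replicate 4, lowest of its group in 9 of 10 genes, and old HFD replicate 2, highest in 6 of 10, weigh on them, so the correlations are a description without a test. Pairs of other genes were not set beside them, so the co-variation is not shown to be particular to the GST genes. Gstk1 with Gsta3 had 0.78 within groups and batches, while over all mice without that correction Gstk1 had r = -0.33 with Gstm1 and -0.42 with Gstp1.

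**Figure D4:**
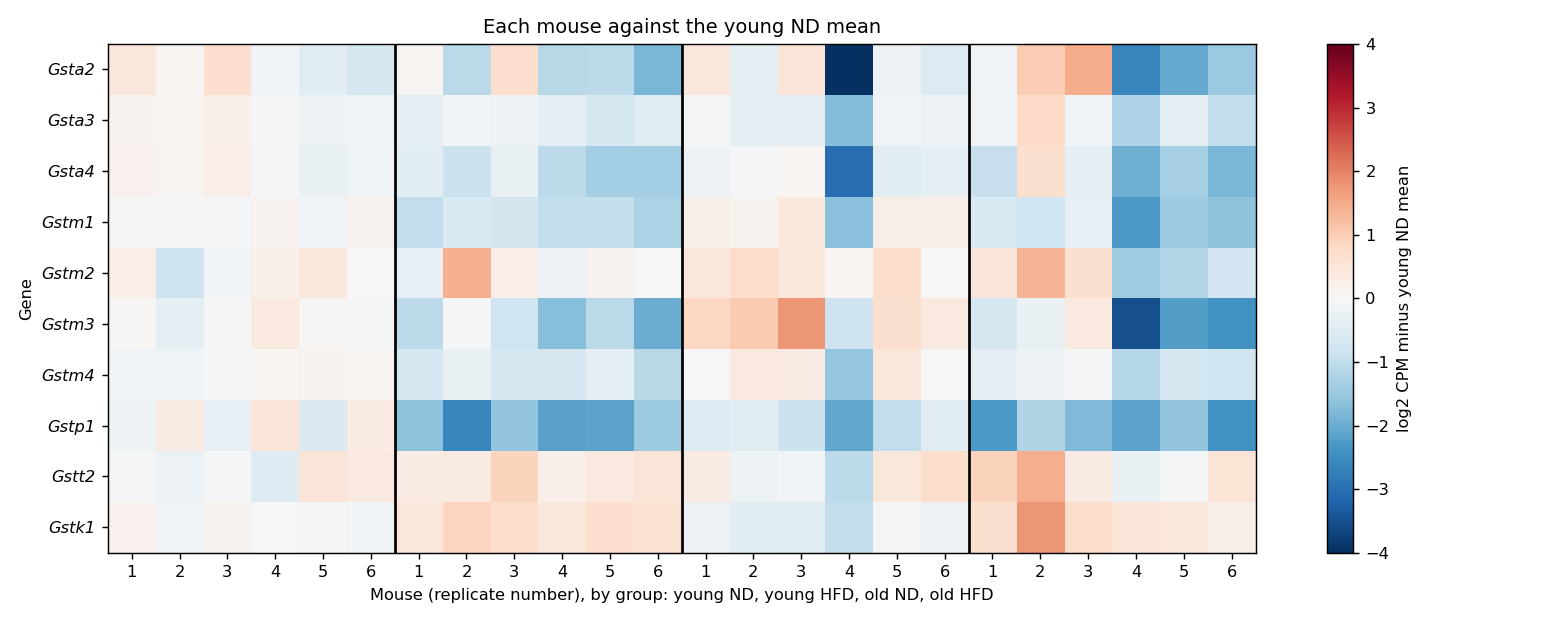
Log2 CPM of the 10 GST genes (rows) in each of the 24 mice (columns, replicate number by group) minus the mean of the 6 young ND mice, from blue (lower) to red (higher). Old ND replicate 4 is blue in 9 of 10 rows, old HFD replicates 4 to 6 are blue in the alpha and mu class rows, Gstp1 is blue in all HFD mice and Gstk1 is red in all of them.

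Outside the GST and glutathione genes, the 5 tested genes whose log2 CPM was most like the mean z-score of the 10, over 24 mice and with batch means removed, were Pir with r = 0.92, Akr1c13 with 0.88, Adh1 with 0.88, 9130409I23Rik with 0.87 and Akr1c19 with 0.86. Pir encodes pirin, an iron-binding nuclear protein, Adh1 the main alcohol dehydrogenase of liver, and the Akr1c genes aldo-keto reductases. Of the 10 themselves, Gsta4 was nearest to that mean (r = 0.92), and Gstt2 (r = 0.44) and Gstk1 (r = 0.08) were farthest from it.

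Of 20 further GST genes, including the microsomal MGST and the omega and zeta classes, 15 were tested. None was called on HFD in either young or old mice. Leaving out old ND replicate 4 made 1 of them, Gstm6, lower in old mice at -0.66 (adjusted p = 0.0115), and with both mice out it was lower at each age, at -0.39 (adjusted p = 0.0496) in young and -0.67 (adjusted p = 0.0136) in old mice. Gstp2 and Gstp3, the pi class neighbours of Gstp1, had low levels. Gstp2 ranged from 0.735 to 4.33 CPM in young HFD (median 1.64) and from 2.92 to 14.4 CPM in old HFD (median 6.56), and was higher in old HFD by a log2 fold change of 1.95 (SE 0.40, adjusted p = 0.0171), with batches 1 and 2 alone giving 2.05 and 1.83. Gstp3 ranged from 9.12 to 17.9 CPM in young HFD (median 14.8) and from 20.5 to 37.9 CPM in old HFD (median 25.8) without overlap, with 0.97 (SE 0.20, adjusted p = 0.0171). Gstp1 itself had 0.03 in that comparison. Gstp1 and Gstp2 share stretches as noted above, so counts of the pair are uncertain. Between old ND and young ND the 1 called gene was Mgst1, named here after its value was seen, a membrane-bound transferase and peroxidase, with a log2 fold change of -0.43 (SE 0.13, adjusted p = 0.0466) and no overlap between the groups. The call was lost without old ND replicate 4, at -0.33 (adjusted p = 0.107), and kept with both mice out, at -0.34 (adjusted p = 0.0442). Between old HFD and young ND, Gstp3 (1.12) and Hpgds (3.87) were higher and Gstm6 (-0.63) lower, to which Gstp2 was added with both mice out, higher at 1.14 (adjusted p = 0.0277). Hpgds, the prostaglandin D synthase of hematopoietic cells, was at 0 to 0.268 CPM in young ND and 0.215 to 3.23 in old HFD, where immune cell markers were also higher.

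Among 16 tested genes of glutathione synthesis and recycling, 2 fell on HFD in young mice and none rose, and 2 fell and 1 rose in old mice. Gclc, the catalytic subunit of the rate-limiting glutamate-cysteine ligase, had 418 to 693 CPM in young ND (median 577), 253 to 425 CPM in young HFD (median 308), 122 to 419 CPM in old ND (median 371) and 124 to 285 CPM in old HFD (median 176). All old HFD mice were below all young ND mice. Its log2 fold change was -0.85 (SE 0.24, adjusted p = 0.0476) when old HFD was set against old ND, -0.77 (SE 0.23, adjusted p = 0.0672) in young mice, which did not pass, and -1.57 (SE 0.24, adjusted p = 0.000135) between old HFD and young ND. Gclm, the modifier subunit of the same enzyme, was called only between old HFD and young ND, with -0.65 (SE 0.16, adjusted p = 0.0048). Gsr, which reduces oxidised glutathione, fell on HFD in young mice with -0.41 (SE 0.09, adjusted p = 0.0132) and no overlap between the groups. G6pdx, a source of the NADPH that Gsr uses, was named after its values were seen. It fell with -1.02 (SE 0.25, adjusted p = 0.0287) in young and -1.23 (SE 0.25, adjusted p = 0.0125) in old mice. Ggct, which breaks down gamma-glutamyl peptides, rose in old mice with 0.81 (SE 0.19, adjusted p = 0.0237). In old ND against young ND the 1 called gene of the list was Ggt5, also named after its value was seen, with 2.70 at 0.494 to 7.19 CPM in old ND, and none was called with old ND replicate 4 left out. Between old HFD and young ND, 5 genes were called lower and 2 higher, where 12.9% and 17.3% of all genes were. Between old HFD and young HFD none was called. Gclc stood near the threshold in the comparisons that missed it: without old ND replicate 4 it was called in young mice, at -0.74 (adjusted p = 0.0248), and between the HFD groups, at -0.80 (adjusted p = 0.0257). It was also called in both with the 2 mice out, at -0.74 (adjusted p = 0.0165) and -0.76 (adjusted p = 0.0479). The list then had 3 genes lower in young mice in either fit, and with both mice out also Ggct higher in young mice, at 0.44 (adjusted p = 0.0306), and Gsr lower in old mice, at -0.36 (adjusted p = 0.0308). Between old HFD and young ND the number lower became 6 without old ND replicate 4 and 4 without both.

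Of 13 tested peroxidases, glutaredoxins and related enzymes none was called on HFD at either age. Between old ND and young ND, Glo1, the glyoxalase that clears methylglyoxal with glutathione, fell with -0.56 (SE 0.13, adjusted p = 0.0106) and Gpx1, the main cytosolic glutathione peroxidase, fell with -0.48 (SE 0.15, adjusted p = 0.0493). Gpx3, a secreted peroxidase, rose with 4.81 (SE 0.87, adjusted p = 0.00318) from 0 to 0.482 CPM in young ND (median 0.132) to 0.424 to 27.9 CPM in old ND (median 1.97), in a comparison where immune, endothelial and stellate cell markers were also higher. Gpx1 lost its call with old ND replicate 4 left out, at -0.40 (adjusted p = 0.129), and Glo1 and Gpx3 kept theirs, while with both mice out all of these 3 were called, Gpx1 at -0.40 (adjusted p = 0.0256). In old HFD against young HFD, where none of the list was called with all mice, Gpx3 was called higher without old ND replicate 4, at 2.53 (adjusted p = 0.0301). For export and mercapturate formation, 3 of 15 tested genes fell on HFD at each age and none rose. At both ages these were Nat8 and Nat8f5, N-acetyltransferase genes of the family that completes mercapturates, and Kyat1, a cysteine conjugate beta-lyase. Nat8f5 ranged from 15.5 to 27.3 CPM in young ND (median 20.2) and from 2.99 to 9.29 CPM in young HFD (median 5.77), and from 2.37 to 10.9 CPM in old ND (median 8.30) and from 0 to 4.35 CPM in old HFD (median 1.72), with -1.78 (SE 0.40, adjusted p = 0.0185) in young and -2.01 (SE 0.44, adjusted p = 0.0166) in old mice. Nat8 had -1.17 (SE 0.22, adjusted p = 0.00442) and -0.87 (SE 0.22, adjusted p = 0.0325), and Kyat1 -0.66 (SE 0.15, adjusted p = 0.0196) and -0.62 (SE 0.15, adjusted p = 0.0278). Nat8f5 was lower in old than in young mice, which by the labels also differ in substrain. Its log2 fold change was -1.39 (SE 0.40, adjusted p = 0.0305) on ND and -1.62 (SE 0.44, adjusted p = 0.0496) on HFD. The ND value became -1.20 (adjusted p = 0.0721) without old ND replicate 4, which missed the threshold, and -1.19 (adjusted p = 0.00987) with both mice out, which passed. Between old ND and young ND, 1 of the 15 was called higher and 2 lower. Beside Nat8f5 the lower one was Abcg2, an efflux transporter of the canalicular membrane named after its value was seen, with -0.66 (SE 0.13, adjusted p = 0.00445) and, without old ND replicate 4, -0.61 (adjusted p = 0.0149). Abcc1, an exporter of glutathione conjugates, was the higher one with 2.97, at 0 to 0.696 CPM in young ND and 0.306 to 4.98 CPM in old ND, where 14 of 15 immune, 5 of 10 endothelial and 9 of 10 stellate cell markers were also called higher, and their part in it was not tested. With both mice out Abcc6 was called higher on HFD in young mice, at 0.31 (adjusted p = 0.0453), and between the HFD groups Abcc3 was called lower without old ND replicate 4, at -0.53 (adjusted p = 0.0471). Against young ND, old HFD had 2 of 15 called higher and 6 of 15 lower with all mice. With both mice out these counts were 4 and 6 of 15. Over all genes, 17.3% were called higher and 12.9% lower in that comparison with all mice.

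Transcription factors known to act on genes of detoxification were counted next. Of 18 tested, none was called on HFD in young mice and 1, Arnt, the partner of the aryl hydrocarbon receptor, fell in old mice with -0.50 (SE 0.11, adjusted p = 0.017). In young mice Nfe2l2 had 73.9 ± 6.74 CPM (mean ± SD, n = 6) on ND and 75.8 ± 4.85 CPM on HFD, and in old mice 69.7 ± 17.1 and 64.6 ± 10.2 CPM. Keap1 had 47.0 ± 3.22 and 42.1 ± 5.38 CPM in young mice, and 43.6 ± 3.88 and 42.5 ± 15.3 CPM in old mice. Both were named for their role in this pathway and not by the size of a change. None of the 18 was called between old ND and young ND or between old HFD and young HFD. Between old HFD and young ND 5 of the 18 were called lower and 1 higher. Over all genes 12.9% were called lower and 17.3% higher there, and 30.2% in either direction, so the count is no trait of this list. Among them, Bach1 (-0.72), Hnf4a (-0.73), Nr1i2 (-0.45) and Arnt (-0.38) were lower and Cebpb (0.81) higher. BACH1 is a repressor at antioxidant response elements, and HNF4A maintains hepatocyte identity. All old HFD mice were below all young ND mice for Bach1 and Hnf4a. With old ND replicate 4 and old HFD replicate 2 out, Nr1i2 lost its call, at -0.36 (adjusted p = 0.058), Keap1 was called lower in its place, at -0.31 (adjusted p = 0.0281), and Nr1i3 was called higher on HFD in young mice, at 0.66 (adjusted p = 0.0411).

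Other targets of NRF2 were measured as a second list. Of 15 tested, 3 fell on HFD in young mice, 2 fell in old mice, and none rose at either age. Txnrd1, the cytosolic thioredoxin reductase, fell with -0.44 (SE 0.12, adjusted p = 0.0428) in young and -0.46 (SE 0.12, adjusted p = 0.0363) in old mice, and Aox1, an aldehyde oxidase, with -0.74 (SE 0.20, adjusted p = 0.0395) and -0.73 (SE 0.20, adjusted p = 0.0442). Ugdh, which makes UDP-glucuronic acid and was named after its value was seen, fell in young mice with -0.68 (SE 0.18, adjusted p = 0.0377). Without old ND replicate 4 the counts were 4 lower in young and 3 lower in old mice: Me1 was added at both ages, at -1.0 (adjusted p = 0.0426) and -1.17 (adjusted p = 0.0397), Ephx1 was added in old mice, at -0.74 (adjusted p = 0.0482), and Txnrd1 lost its call there, at -0.44 (adjusted p = 0.0522). With both mice out they were 4 and 2, with Me1 added at both ages and Txnrd1 not called in old mice, at -0.42 (adjusted p = 0.0767). Between old ND and young ND the 1 called gene was Hmox1, also named after its value was seen, the inducible heme oxygenase of macrophages and hepatocytes, which rose with 1.52 (SE 0.41, adjusted p = 0.0205), a call lost without old ND replicate 4, at 1.22 (adjusted p = 0.0762), and with both mice out. Between old HFD and young ND 6 of the 15 were called lower and 2 higher, and 7 and 2 with both mice out. With all mice, 12.9% of all genes were called lower and 17.3% higher there. Me1, which makes NADPH, had -1.74 and ranged from 289.5 to 444 CPM in young ND (median 399) and from 43.8 to 253 CPM in old HFD (median 137), and Ephx1, the microsomal epoxide hydrolase, had -1.04. These lists were chosen with earlier results of the same data known, so their counts are descriptions set beside the shares of all genes given above.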

How the data were processed

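Libraries of polyA RNA from purified hepatocytes of 24 male mice were grouped by diet, age and batch as the sample labels give them. The deposited count table holds raw whole-number counts for every gene. The authors obtained these counts with HTSeq 0.11.2 after FastQC 0.11.8 and 2-pass STAR 2.7.3a alignment to mm10. A second deposited table holds FPKM for 37789 genes, for which the authors name CuffLinks and, in the table's title alone, ComBat. The authors tested their counts with DESeq2. Strand, duplicates and reads matching several places are not described, so reads of near-identical GST genes may be lost or shared. No column lacked a sample.

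Counts were fitted in edgeR 4.0.16 (R 4.3.3) with TMM factors, filterByExpr by group, group and batch terms over all mice, quasi-likelihood F tests and Benjamini-Hochberg adjustment over 13583 genes per comparison. SE is the size of the log2 fold change over the square root of F, and log2 CPM used a prior count of 2. Depth limits the precision of low genes, and counting error is a lower limit where reads carry no molecular identifiers. The labels number the mice of a group as separate samples, and each pair differed by more than sampling noise (chi-square over degrees of freedom 15.2 or more). The fit was tested on simulated counts that held no batch effect and no outlying mouse, so that test does not bear on either.

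The 10 genes and all gene lists were chosen with earlier results of these data known. Named genes were the 10, at most 4 genes per list with the smallest adjusted p under 0.05, the transcription factors that passed (1 item is not reported here), the 5 genes most like the 10, and those said to be named after their values were seen or for their role. Alternatives were DESeq2 1.42.0, limma 3.58.1 on log2(FPKM + 1) and log2(FPKM + 0.1), RLE factors, no count filter, no batch term, a block for replicate number without the batch term, each batch alone, only the 2 groups compared, each mouse left out, and old ND replicate 4 with old HFD replicate 2 left out, the last chosen after seeing the data. Gene positions and 50-base stretches came from a GENCODE annotation of GRCm38 and promoters from RefSeq. Python 3.11.15, pandas 2.3.3 and matplotlib 3.10.9 made the tables and figures.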

Additional observations from a re-analysis of the deposited data

Results flagged for a closer look

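In each of the 40 sets of 6 mice formed by a gene and a group, the gap between the most extreme mouse and the nearest of the others was divided by the range of log2 CPM, and the gap was past Dixon's 95% critical value in 8 sets. By chance about 1 set in 20 would be. Of the 8 sets, 6 were the same mouse, old ND replicate 4, each time as the lowest of its group: Gsta2 at 2.04 CPM where the other 5 had 23.3 to 48.9, Gsta3 at 601 CPM where the other 5 had 1532 to 1915, Gsta4 at 10.2 CPM where the other 5 had 62.6 to 89.2, Gstm1 at 423 CPM where the other 5 had 1507 to 1808, Gstm4 at 29.1 CPM where the other 5 had 85.4 to 116, Gstp1 at 226 CPM where the other 5 had 483 to 699.9. This mouse also had the lowest sum of hepatocyte markers and the highest sums of immune, endothelial and stellate cell markers of all 24 mice, with 949 CPM of endothelial and 492 CPM of stellate cell markers. Albumin (Alb) was at 29008 CPM in it and at 82623 to 128235 CPM in the other 5. The part of these cells in its GST levels was not tested. Gstk1 in old HFD replicate 2 stood at 349 CPM above 117 to 170.0 in the other 5, and Gstm2 in young HFD replicate 2 at 123 CPM above 36.0 to 55.2.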

How the results depend on the processing

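The number of the 10 genes called moved with the settings. For young HFD against young ND it moved from 3 to 7 without a count filter, 1 without the batch term, 1 with the replicate block, 1 with limma at either pseudocount, 1 in batch 1 alone, 0 in batch 2 alone, 7 with only the 2 groups compared, 5 without old ND replicate 4 and old HFD replicate 2. For old HFD against old ND it moved from 4 to 7 without a count filter, 0 in batch 1 alone, 2 in batch 2 alone, 0 with only the 2 groups compared. For old ND against young ND it moved from 1 to 2 without a count filter, 0 without the batch term, 0 with limma at either pseudocount, 0 in batch 1 alone, 0 in batch 2 alone, 0 with only the 2 groups compared, 0 without old ND replicate 4 and old HFD replicate 2. For old HFD against young ND it moved from 4 to 7 without a count filter, 7 without old ND replicate 4 and old HFD replicate 2. For the interaction it moved from 0 to 2 without a count filter. The share of all genes called moved with the settings too: for young HFD against young ND, old HFD against old ND and old ND against young ND it was 3.5%, 3.01% and 8.5% as reported, 4.56%, 3.43% and 6.35% without a count filter, 1.28%, 1.96% and 4.62% without the batch term, 2.08%, 3.28% and 9.94% with the replicate block, 1.83%, 1.91% and 0.932% with limma at a pseudocount of 1, 0.96%, 0.111% and 0.687% in batch 1, 0.0632%, 0.112% and 0.014% in batch 2 and 18.6%, 0.119% and 10.8% with only the 2 groups compared. For old HFD against young ND it was 30.2% as reported, 14.3% without a count filter and 30.2% without old ND replicate 4 and old HFD replicate 2, and for the interaction 0% and, without a count filter, 1.82%. With each mouse left out in turn the count was 1 to 5, 3 to 5, 0 to 1 and 3 to 6 in these 4 pairwise comparisons, and 0 in the other 2. It was 1 for young HFD against young ND in 14 of these fits and 5 without old ND replicate 4. The 12 called changes kept their direction in all 420 refits, and 92 of these missed the threshold. Those lost when 1 mouse was left out were Gstm1 (18 mice, all 12 young ones among them) and Gstk1 (16 mice, all 12 young ones among them) in young HFD against young ND, Gstp1 in old HFD against old ND (old ND 1, 2 and 6, old HFD 4 and 6, adjusted p from 0.0547 to 0.0938), Gstp1 in old ND against young ND (young ND 2, 4 and 6, young HFD 5, old ND 2 to 5, from 0.0504 to 0.112) and Gstm3 in old HFD against young ND (young ND 4 to 6, old HFD 4 to 6, from 0.051 to 0.105; edgeR). Signs turned in some settings, only for values that were not called. In batch 2 alone, log2 fold changes were Gstm2 -0.23 for young HFD against young ND and Gsta3 -0.31, Gstt2 -0.01 for old HFD against old ND and Gsta2 -0.00391, Gstm1 -0.07, Gstm4 -0.13, Gstt2 -0.06 for old ND against young ND and Gsta2 -0.7, Gsta3 -0.34, Gsta4 -0.44, Gstm4 -0.19, Gstp1 -0.13, Gstt2 -0.27, Gstk1 -0.21 for old HFD against young HFD and Gstt2 -0.07 for old HFD against young ND. Without the batch term, log2 fold changes were Gsta2 0.32 for old HFD against old ND and Gsta2 -0.28 for old ND against young ND and Gstm3 0.07 for old HFD against young HFD and Gsta2 0.04, Gstm2 0.16 for old HFD against young ND. With the replicate block, log2 fold changes were Gsta2 0.02 for old HFD against old ND and Gsta2 -0.47, Gstm1 -0.05, Gstm4 -0.03 for old ND against young ND and Gsta4 -0.01 for old HFD against young HFD. In batch 1 alone, log2 fold changes were Gsta2 0.77, Gstm2 0.23 for old HFD against old ND and Gsta2 -0.3 for old ND against young ND and Gstm1 0.17, Gstm2 0.2, Gstm3 0.4 for old HFD against young HFD and Gsta2 0.47, Gsta3 0.06, Gstm2 1 for old HFD against young ND. Without old ND replicate 4 and old HFD replicate 2, log2 fold changes were Gsta3 -0.29 for old HFD against old ND and Gsta3 -0.15, Gsta4 -0.28, Gstp1 -0.13, Gstt2 -0.1, Gstk1 -0.11 for old HFD against young HFD. With limma at a pseudocount of 1, log2 fold changes were Gsta2 -0.09 for old ND against young ND and Gstp1 -0.08, Gstk1 -0.04 for old HFD against young HFD. With limma at a pseudocount of 0.1, log2 fold changes were Gsta2 -0.3 for old ND against young ND and Gstp1 -0.08, Gstk1 -0.04 for old HFD against young HFD. With only the 2 groups compared, log2 fold changes were Gsta2 -0.1 for old ND against young ND. Without a count filter, log2 fold changes were Gstp1 -0.01 for old HFD against young HFD. With each mouse left out, log2 fold changes ranged across 0 for Gstm2 in young HFD against young ND (-0.05 to 0.36), Gsta3 in old HFD against old ND (-0.17 to 0.21), Gsta2 in old ND against young ND (-0.39 to 0.25), Gstm1 in old ND against young ND (-0.02 to 0.29), Gstm4 in old ND against young ND (-0.04 to 0.26), Gstt2 in old ND against young ND (-0.07 to 0.26), Gsta2 in old HFD against young HFD (-0.08 to 0.51), Gsta3 in old HFD against young HFD (-0.15 to 0.21), Gsta4 in old HFD against young HFD (-0.28 to 0.2), Gstm2 in old HFD against young HFD (-0.58 to 0.04), Gstm3 in old HFD against young HFD (-0.47 to 0.15), Gstp1 in old HFD against young HFD (-0.12 to 0.15), Gstt2 in old HFD against young HFD (-0.1 to 0.25), Gstk1 in old HFD against young HFD (-0.11 to 0.23), Gstm2 in old HFD against young ND (-0.37 to 0.16). DESeq2 and RLE normalization gave counts within 1 of edgeR's. Same-numbered mice deviated together from their group means with a mean correlation of 0.182, which was -0.00199 with batch means also removed, and 7 of 24 mice correlated best with their own number. The numbers belong to different mice, so the replicate block is only an alternative model, and the calls it changed are Gstm1 and Gstk1 in young HFD against young ND (adjusted p = 0.0576 and 0.0742, edgeR) and Gsta4 in old HFD against young ND, gained with 0.0442. The cause of these changes was not tested. Depth limits Hpgds, Gpx3 and other genes near 0 CPM more than the 10.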

Other observations

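Markers of the zones of the liver lobule were called most often between old HFD and young ND, as were genes of any kind. Over all genes, 30.2% were called there in either direction, against 2.24% to 8.5% in the other pairwise comparisons. In old HFD against young ND, 5 of 10 pericentral markers were called higher and 1 lower, with a median log2 fold change of 0.64, and 3 of 10 periportal markers were called lower and none higher, with a median of -0.62. With old ND replicate 4 and old HFD replicate 2 left out, 4 of 10 pericentral markers were called higher and 1 lower, and 2 of 10 periportal markers higher and 3 lower. The shares over all genes in that comparison were 17.3% called higher and 12.9% lower. In old HFD against young HFD no marker of either zone was called, with medians of 0.29 and -0.27. The general hepatocyte markers were called higher for 3 of 10 and lower for 2 of 10 in old HFD against young ND.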
